A study of Mus musculus with 2 samples.

Results

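The Hedgehog pathway genes described here are the ligand *Shh*, its receptor *Ptch1*, the co-receptors *Boc* and *Cdon*, the ligand-binding inhibitor *Hhip*, the signal transducer *Smo* and the transcription factors *Gli1*, *Gli2* and *Gli3*. They were chosen as pathway members by name, and all 9 were found by symbol among the 31053 genes of the count tables. Sonic hedgehog (Shh) is a secreted protein that binds Ptch1 on the receiving cell. Binding releases Smo from inhibition by Ptch1, and Smo then changes the GLI transcription factors from repressors into activators. *Gli1*, *Ptch1* and *Hhip* are transcribed when the pathway is active and are widely used as its readout, and Ptch1 and Hhip in turn hold ligand back. In the embryonic retina, ganglion cells, the first neurons to be born, secrete Shh, and the dividing progenitors beside them receive it.

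Single-cell RNA-seq was performed on mouse eyecups, with retina, lens and blood, at E13.5. The control library came from a *Six3*+/- *Six6*+/- embryo, which lacks 1 allele of each gene; its *Six3* null allele came, by the study's account, from Cre activity in the germ line. The double knockout (DKO) library came from a *Six3*F/F *Six6*-/- littermate with *α-Cre*, in which *Six6* is inactivated in the germline, and that embryo was picked by GFP-positive rosettes in its retinas. *α-Cre* acts in the peripheral retina and not in the central retina, so the DKO library mixes cells that lost *Six3* with cells that kept it. Each genotype had 1 library from the eyecups of 1 embryo, so there was no test between the genotypes, and ranges in parentheses are 95% intervals for counting error alone.

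After filtering, 9822 control cells with a median of 7620 UMIs (unique molecular identifiers, counted transcripts) and 12146 DKO cells with a median of 5879 UMIs remained, and 22 cell barcodes occurred in both deposited libraries. Levels are UMIs summed over a group of cells per 1000000 UMIs of that group (CPM), which cannot tell a change in transcripts per cell from a change in the other RNA of the cell. Levels are compared within a gene and not between genes. The cells fell into 20 clusters. Clusters 0, 1 and 9 had all 9 naïve progenitor markers above the other cells and are called the progenitor clusters. Their leading genes were histone, replication and mitosis genes rather than these markers, and cluster 1 had 1 endothelial marker among its 10 leading genes, so values are also given for each cluster by number. Clusters 3 and 7 were neurogenic-like, clusters 5, 6 and 15 ganglion-like, cluster 16 amacrine- or horizontal-like, cluster 18 photoreceptor-like and cluster 13 lens-like. Cluster 4 carried pigment epithelium and ciliary margin markers, and cluster 10 held 662 DKO cells and no control cell. In cluster 15, 86.7% of cells were scored as doublets, so ganglion-like values were also computed without it. *Six6* was at 368 CPM in control and 45.3 CPM in DKO progenitor clusters, and *Six3* at 307 and 231 CPM. The tags were read at the 3′ end, whereas the deleted part of *Six3* is described by the study as its exon 1, and the study also describes less read coverage at the 3′ end after deletion. *Six3* levels are therefore used below for groups of cells and not as a call of the allele in a cell.

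*Ptch1* and *Hhip* are shown by sequence because both were higher in DKO progenitor clusters, as was *Gli1*, for which no promoter was in the table used. These are the 250 bases before the start of each gene on GRCm38.p6, from RefSeq, written 5′ to 3′ on the gene's strand. They lie at chr13:63565736-63565985 for *Ptch1* and at chr8:80058009-80058258 for *Hhip*, both on the minus strand, and this RefSeq start of *Ptch1* lies inside the gene as GENCODE draws it. The capitals mark CCACCC, the inner letters of the GLI binding motif GACCACCCA.
Ptch1 promoter: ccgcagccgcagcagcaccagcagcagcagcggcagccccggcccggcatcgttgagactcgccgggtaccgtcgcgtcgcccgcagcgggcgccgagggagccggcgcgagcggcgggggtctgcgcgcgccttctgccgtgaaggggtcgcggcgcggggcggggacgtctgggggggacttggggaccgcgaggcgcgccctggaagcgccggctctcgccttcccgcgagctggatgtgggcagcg
Hhip promoter: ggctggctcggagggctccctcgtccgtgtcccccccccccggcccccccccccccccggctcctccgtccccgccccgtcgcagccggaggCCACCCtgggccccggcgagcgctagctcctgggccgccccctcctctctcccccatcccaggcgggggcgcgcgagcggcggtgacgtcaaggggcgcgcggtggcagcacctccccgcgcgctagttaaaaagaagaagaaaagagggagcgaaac
Promoters of 6 of the 9 genes were in the table, all but those of *Shh*, *Gli1* and *Boc*. As with *Ptch1*, the windows of *Cdon* and *Gli3* lie inside the gene as GENCODE draws it. GACCACCCA, searched on both strands, was in none of the 6 windows and in 74 of 32851 promoters of the same length (0.225%). CCACCC was in 4 of the 6, those of *Hhip*, *Smo*, *Gli2* and *Gli3*, and in 28.1% of all promoters. In *Hhip* it began 158 bases before the start. A match of letters is not a binding site, and these windows leave out more distant sequence.

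*Shh* (ENSMUSG00000002633, mm10 chr5:28456815-28467256, minus strand), the ligand, was detected almost entirely in ganglion-like cells, which held 39 of its 40 UMIs in the control library and 156 of its 158 in the DKO library. The highest level was in cluster 6, at 7.84 CPM (5.25 to 11.3) from 29 UMIs in control and 16.2 CPM from 127 UMIs in DKO. The level in cluster 6 was 2.07-fold higher in DKO, a log2 ratio of 1.05 (0.46 to 1.68). Cluster 6 also differed in size, with 378 control cells (3.85% of the library) and 990 DKO cells (8.15%). Cluster 5, whose leading genes included the early ganglion gene *Pou4f2*, had 3 *Shh* UMIs in 602 control cells and 16 in 1149 DKO cells. In cluster 15 the order was the other way, at 5.16 CPM in control and 4.01 CPM in DKO, with an interval of the log2 ratio from -1.80 to 1.20.

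Over the 3 ganglion-like clusters *Shh* was at 4.02 CPM in control and 8.60 CPM in DKO, a log2 ratio of 1.10 (0.58 to 1.64), and without cluster 15 the ratio was 1.32 (0.76 to 1.92). *Shh* was seen in few cells at a time. In cluster 6, 26 of 378 control cells (6.88%, 4.54 to 9.92) and 115 of 990 DKO cells (11.6%, 9.69 to 13.8) had at least 1 *Shh* UMI, and the most in any cell was 2 in control and 3 in DKO. When each cell was thinned to 2000 UMIs, the shares were 1.61% (0.593 to 3.47) of 373 control cells and 2.28% (1.44 to 3.43) of 964 DKO cells, and these intervals overlap. When the cells were thinned to 4000 UMIs instead, the shares were 2.74% (1.32 to 4.98) of 365 control cells and 6.74% (5.21 to 8.56) of 920 DKO cells, and these intervals do not overlap. Red blood-like cells, which should lack *Shh*, gave 1 of 1061 control cells and 0 of 536 DKO cells after thinning to 2000 UMIs (3 counts would be 0.560%, and the exact upper bound is 0.686%), with median depths of 8453 and 6316 UMIs before it. The progenitor clusters had 0 *Shh* UMIs in 3502 control cells and 1 in 3494 DKO cells. Cluster 10 had 0 *Shh* UMIs in 662 DKO cells without thinning, at a median of 4405.5 UMIs, which bounds the share of cells with a UMI at 0.556% and not the share that express the gene. The plot of levels by cluster shows the ligand in ganglion-like cells and its readout genes mainly in other clusters.

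**Figure D1:**
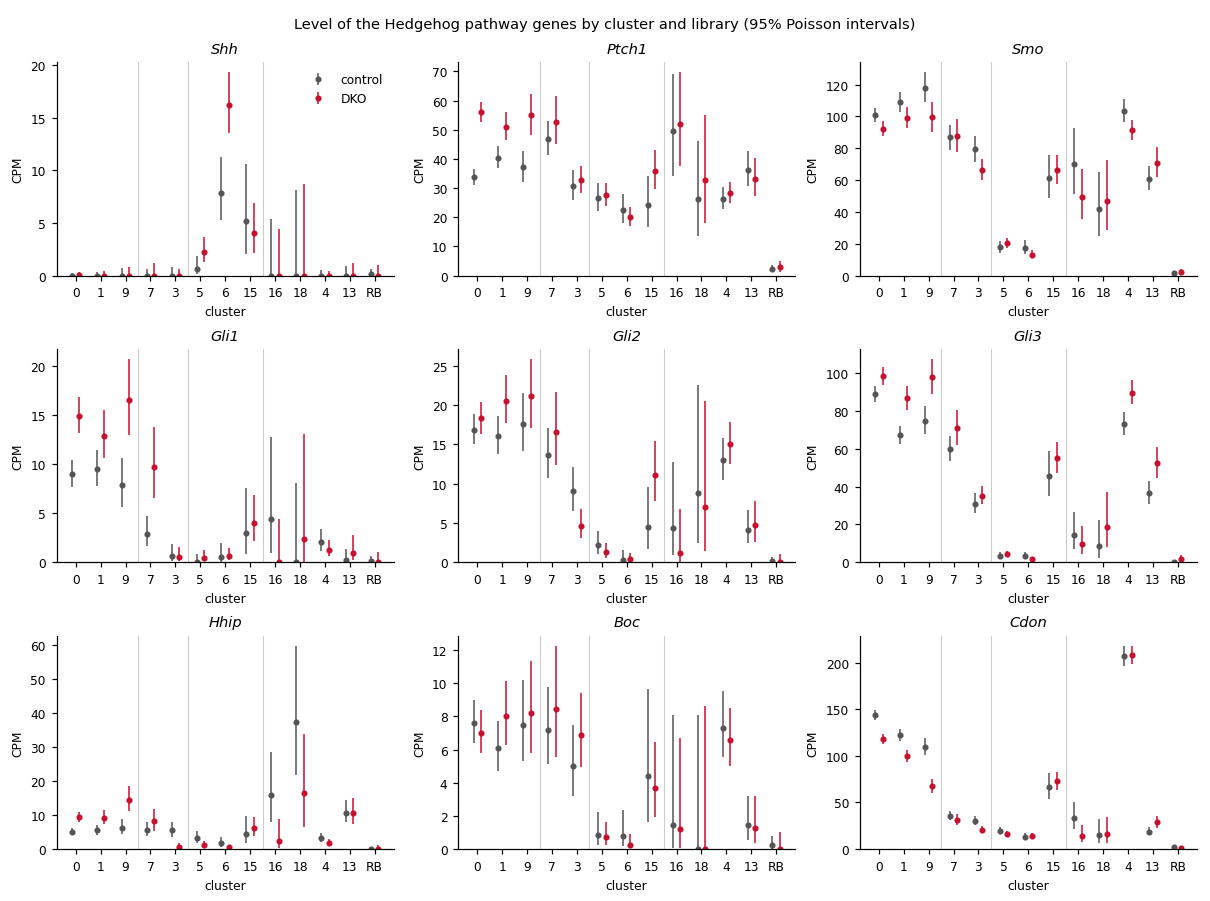
Level of each of the 9 genes (CPM, linear axes) by cluster in control (grey) and DKO (red), with points for the summed UMIs of the cluster and bars for exact Poisson intervals; RB stands for red blood-like cells. *Shh* stands above 0 in ganglion-like clusters 5, 6 and 15. *Gli1* is highest in progenitor clusters 0, 1 and 9 and lower in cluster 7 and other clusters, and *Cdon* is highest in cluster 4.

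The libraries were also clustered one at a time, at a finer resolution, to see how *Shh* was spread among ganglion-like cells. In control, 26 of the 39 UMIs lay in 1 subcluster of 316 cells, nearly all of them from cluster 6, at 8.29 CPM (5.42 to 12.1). In DKO, 2 subclusters were higher than that, at 21.4 CPM (16.9 to 26.6) in 421 cells and 17.1 CPM (12.7 to 22.7) in 403 cells. A further DKO subcluster of 327 cells, 313 of them also from cluster 6, was at 4.99 CPM (2.58 to 8.72), so cluster 6 was not uniform for *Shh* in DKO. The *Shh* locus overlaps 2 genes on the opposite strand, *9530036O11Rik* with 6 UMIs in control and 19 in DKO and *Gm26894* with 4 and 11. The sources used here do not say whether reads were counted by strand.

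**Figure D2:**
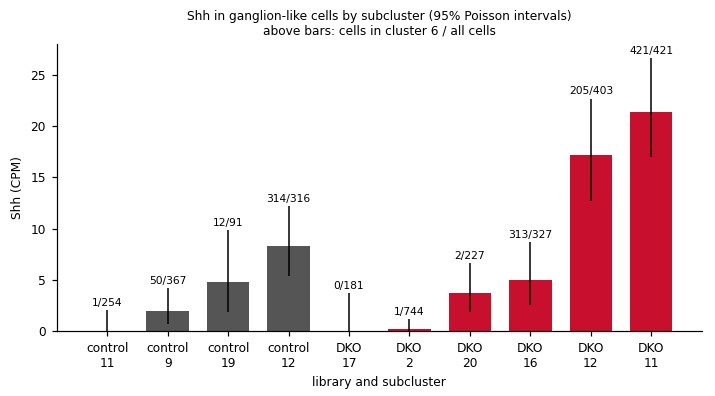
*Shh* level (CPM, linear axis from 0) in the ganglion-like cells of each subcluster, with each library clustered alone and control in grey, DKO in red; bars are summed UMIs, lines are exact Poisson intervals, and the numbers above are cells in cluster 6 over all ganglion-like cells of the subcluster. DKO subclusters 11 and 12 reach 21.4 and 17.1 CPM, and the highest control subcluster 8.29 CPM.

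*Ptch1* (ENSMUSG00000021466, mm10 chr13:63508328-63573598, minus strand), the receptor and itself a readout of the pathway, was higher in DKO in each of the progenitor clusters. It was at 33.7 CPM (31.1 to 36.4) in control and 56.0 CPM (52.5 to 59.6) in DKO in cluster 0, at 40.4 and 51.0 CPM in cluster 1, and at 37.1 and 55.0 CPM in cluster 9. Summed over these clusters, 1275 control and 1658 DKO UMIs gave a log2 ratio of 0.58 (0.48 to 0.69), which lies just inside a fold of 1.5. Without integration of the libraries the ratio was 1.02 (0.87 to 1.17), which is past that fold. The progenitor clusters then held fewer cells, of DKO above all, so the ratio is over another set of cells. *Ptch1* did not differ beyond counting error in neurogenic-like cells, at 39.5 and 39.8 CPM, or in ganglion-like cells, at 24.7 and 25.7 CPM. *Ptch1* was also detected in the amacrine- or horizontal-like cluster, at 49.5 and 51.8 CPM.

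*Boc* (ENSMUSG00000022687, mm10 chr16:44485049-44558897, minus strand) encodes a co-receptor that presents Shh to Ptch1. It was at 7.12 CPM in control and 7.48 CPM in DKO progenitor clusters, a log2 ratio of 0.07 (-0.19 to 0.34), and nearly absent from ganglion-like clusters 5 and 6, with 4 and 3 UMIs in control and 5 and 2 in DKO. *Cdon* (ENSMUSG00000038119, mm10 chr9:35421128-35507652, plus strand), the related co-receptor, was highest in cluster 4, at 207 CPM (197 to 218) in control and 209 CPM (199 to 218) in DKO. In the progenitor clusters *Cdon* was lower in DKO, at 132 CPM in control and 105 CPM in DKO, a log2 ratio of -0.33 (-0.39 to -0.26). The difference was largest in cluster 9, at 110 and 67.2 CPM, and in neurogenic-like cells *Cdon* was also lower in DKO, with a log2 ratio of -0.44 (-0.69 to -0.19). In ganglion-like cells the interval of its ratio, 0.09 (-0.14 to 0.33), spanned 0, and without cluster 15 the ratio was -0.16 (-0.47 to 0.16).

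*Hhip* (ENSMUSG00000064325, mm10 chr8:79965851-80058006, minus strand) encodes a membrane protein that binds Hedgehog ligands and keeps them from Ptch1. It was higher in DKO progenitor clusters and lower in DKO in neurogenic-like cluster 3, ganglion-like cluster 5 and amacrine- or horizontal-like cluster 16. In the progenitor clusters it was at 5.35 CPM (4.61 to 6.17) in control and 10.1 CPM (8.98 to 11.3) in DKO, 1.88-fold higher in DKO, with the same direction in cluster 0 (5.03 and 9.38 CPM), cluster 1 (5.46 and 9.19 CPM) and cluster 9 (6.31 and 14.5 CPM). Over the 3 clusters its log2 ratio was 0.91 (0.65 to 1.18), and 1.90 (1.56 to 2.24) without integration, again over fewer cells. In neurogenic-like cluster 3, in contrast, 26 control UMIs stood against 4 DKO UMIs, a log2 ratio of -2.98 (-4.96 to -1.45). In cluster 7, the neurogenic-like cluster led by *Penk* and *Dll4*, *Hhip* was at 5.56 and 8.12 CPM, with an interval that spanned 0 (-0.26 to 1.35). The highest level of *Hhip* in any cluster was in photoreceptor-like cells, at 37.3 CPM (21.8 to 59.8) from 17 control UMIs and 16.4 CPM (6.60 to 33.8) from 7 DKO UMIs, and these intervals overlap. In amacrine- or horizontal-like cells *Hhip* had 11 UMIs in control and 2 in DKO, and in cluster 5 it had 15 and 9.

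*Smo* (ENSMUSG00000001761, mm10 chr6:29735503-29761365, plus strand), the membrane protein that passes the signal into the cell, was higher in the progenitor clusters and cluster 4 than in ganglion-like clusters 5 and 6. It was at 106 CPM in control and 95.3 CPM in DKO progenitor clusters, a log2 ratio of -0.15 (-0.22 to -0.08), and at 17.6 and 13.2 CPM in ganglion-like cluster 6.

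*Gli1* (ENSMUSG00000025407, mm10 chr10:127329882-127341974, minus strand), an activator whose transcription depends on the pathway, was detected mainly in the progenitor clusters, which held 314 of its 370 UMIs in control and 443 of its 533 in DKO. It was at 8.94 CPM (7.64 to 10.4) in control and 14.9 CPM (13.1 to 16.8) in DKO in cluster 0, at 9.46 and 12.9 CPM in cluster 1, and at 7.84 and 16.5 CPM in cluster 9. The summed level was 1.63-fold higher in DKO, a log2 ratio of 0.70 (0.49 to 0.91). With the libraries clustered without integration, which left 1105 DKO cells in the progenitor clusters, the ratio was 1.68 (1.42 to 1.95). *Gli1* was also higher in DKO in cluster 7, at 2.87 CPM from 16 UMIs and 9.69 CPM from 31 UMIs, whereas cluster 3 had 3 UMIs in each library. In ganglion-like cluster 5 there were 0 control and 3 DKO *Gli1* UMIs, and in cluster 4 there were 16 and 11. In cluster 6, which had the most *Shh*, there were 2 and 5. *Gli1* overlaps *Arhgap9* and *Gm47200* on the opposite strand, with 8 and 0 UMIs in control and 14 and 0 in DKO.

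*Gli2* (ENSMUSG00000048402, mm10 chr1:118834132-119053619, minus strand), the main activator, and *Gli3* (ENSMUSG00000021318, mm10 chr13:15463235-15730026, plus strand), which acts largely as a repressor, were higher in the progenitor clusters and cluster 4 than in ganglion-like clusters 5 and 6. In the progenitor clusters *Gli2* was at 16.7 CPM in control and 19.4 CPM in DKO, a log2 ratio of 0.21 (0.05 to 0.38). *Gli3* was at 80.0 CPM in control and 95.1 CPM in DKO, a log2 ratio of 0.25 (0.17 to 0.32), which turned to -0.19 (-0.31 to -0.07) when the libraries were clustered without integration. *Gli3* was higher in DKO in cluster 4 as well, at 73.1 and 89.8 CPM, and in lens-like cells, at 36.6 and 52.3 CPM. In ganglion-like clusters 5 and 6 both were low, *Gli2* between 0.270 and 2.15 CPM and *Gli3* between 1.66 and 4.38 CPM over the 2 libraries.

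Among genes with a mean of at least 5 CPM and 20 UMIs, 3.88% of genes in the progenitor clusters were more than 1.5-fold higher in DKO and 1.84% more than 1.5-fold lower. *Gli1* and *Hhip* were past this fold, *Ptch1* was just under it, no member was below it, and *Shh* was not among the genes counted. In ganglion-like cells, where 6.30% of genes were past the fold upwards and 2.47% downwards, *Shh* was past it, and it had passed the filter through its level in DKO. In neurogenic-like cells (6.39% upwards and 4.53% downwards) and in cluster 4 (6.78% and 4.44%), none of the 6 members counted in each was past the fold. *Shh*, *Gli1* and *Hhip* were under the filter in both of these groups. The plot of ratios shows these values.

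**Figure D3:**
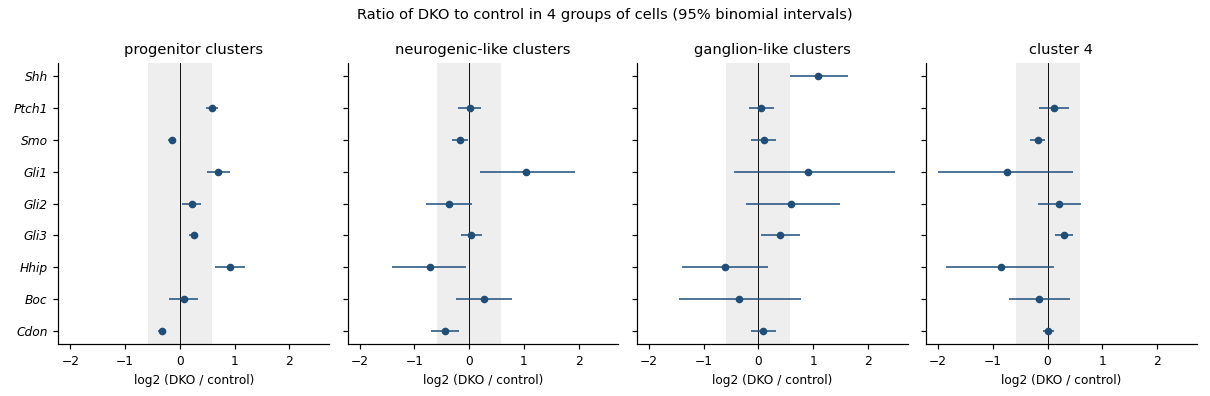
Log2 ratio of DKO to control for each gene in 4 groups of cells, with points for summed UMIs, bars for exact binomial intervals, and a grey band for less than 1.5-fold; genes at or under 3 UMIs in both libraries have no point. *Hhip* lies right of 0 in the progenitor clusters (0.91) and left of 0 in neurogenic-like cells (-0.72), and *Cdon* lies left of 0 in both (-0.33 and -0.44).

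The progenitor clusters were not uniform in either library, and the readout genes were highest in a small part of the DKO cells. Each library was clustered alone, without the members or *Six3* and *Six6* among the genes used, and subclusters with at least 100 cells in the progenitor clusters were kept, 6 in control and 7 in DKO. In control, *Gli1* ranged from 1.40 CPM (0.564 to 2.89) in subcluster 10 to 14.0 CPM (11.9 to 16.4) in subcluster 2. Control subcluster 10 was led by *Ltbp1* and *Gja1*, a ciliary margin marker, and had the lowest *Ptch1* (19.0 CPM) and *Hhip* (1.60 CPM) and the highest *Boc* (12.6 CPM) and *Cdon* (223 CPM) of the 6. Low readout genes thus went with high co-receptors in this subcluster. Control subcluster 15 had the next lowest *Gli1*, at 2.21 CPM (0.602 to 5.66) from 4 UMIs. Its *Boc* was the next highest, at 9.39 CPM, but its *Cdon* was the lowest of the 6, at 105 CPM.

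In DKO, *Gli1* ranged over subclusters from 1.10 CPM (0.298 to 2.80) to 45.9 CPM (40.1 to 52.4). The top was subcluster 8, with 569 progenitor cells, where *Ptch1* at 94.4 CPM (85.9 to 104) and *Hhip* at 32.1 CPM (27.2 to 37.6) were also the highest of any subcluster in either library, and *Boc* at 2.10 CPM (1.01 to 3.86) the lowest. It held 219 of the 443 *Gli1* UMIs and 153 of the 307 *Hhip* UMIs of DKO progenitor clusters. Its leading genes were *Espn*, *Cyp26a1*, a retinoic acid-degrading enzyme, *Cox4i2*, *Ndufa4l2* and *Ccnd1*, a G1 cyclin. Its *Six3* was at 532 CPM (511 to 553), above all 6 control subclusters (238 to 344 CPM). The control embryo lacked 1 *Six3* allele, so its *Six3* level is not that of 2 intact alleles. After thinning to 2000 UMIs, 45 of the 566 cells of DKO subcluster 8 (7.95%) had a *Gli1* UMI, against 3.69% (2.62 to 5.03) in control subcluster 2. DKO subcluster 5, with the next highest *Six3* of the DKO subclusters, 335 CPM, had the next highest *Gli1* (25.3 CPM) and *Hhip* (16.4 CPM). Its *Ptch1* was at 62.9 CPM, beside 63.3 CPM (49.0 to 80.5) in subcluster 1, where *Six3* was at 256 CPM. At the other end, subclusters 3 and 7, with *Six3* at 102 and 115 CPM, had the lowest *Gli1* of the DKO subclusters, at 1.10 and 4.34 CPM, and the highest *Gli3*, at 112 and 119 CPM.

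**Figure D4:**
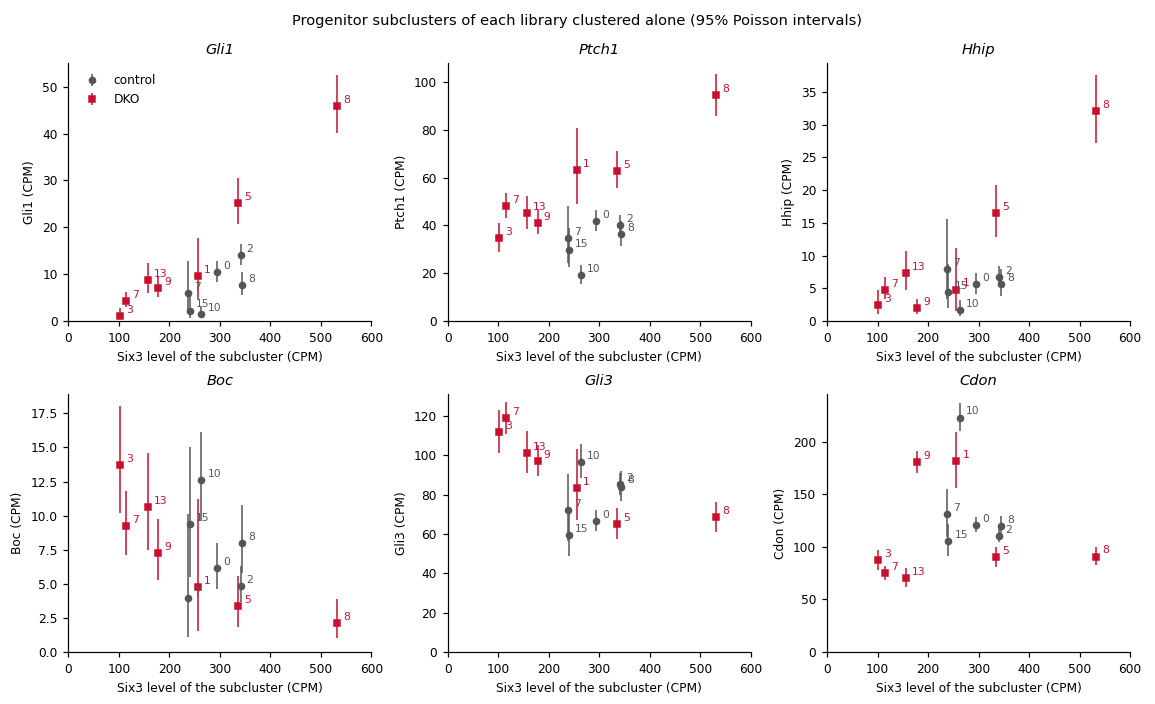
Level of 6 of the genes against the *Six3* level (CPM, linear axes) in progenitor subclusters of control (grey circles) and DKO (red squares), with subcluster numbers and exact Poisson intervals. In DKO, *Gli1* goes from 1.10 CPM in subcluster 3 to 45.9 CPM in subcluster 8, and *Boc* from 13.7 CPM to 2.10 CPM in the same subclusters; the points of a library share its cells' source and are not replicates.

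When DKO subcluster 8 was left out, a choice made after its values were seen, the log2 ratio of *Gli1* in the progenitor clusters was -0.037 (-0.29 to 0.22), that of *Hhip* was 0.16 (-0.15 to 0.48), and that of *Ptch1* was 0.37 (0.26 to 0.49). Without it the intervals of *Gli1* and *Hhip* spanned 0, and that of *Ptch1* stayed above 0. Leaving out the highest subcluster lowers a level by construction, and no control subcluster was left out to match. DKO subcluster 5 was also high without it, with *Gli1* at 25.3 CPM (20.7 to 30.6) and *Hhip* at 16.4 CPM (12.8 to 20.8), where the highest control subclusters were at 14.0 CPM (11.9 to 16.4) and 7.89 CPM (3.41 to 15.5).

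DKO cells were then split by whole subclusters at a *Six3* level of 50% of control progenitor clusters, and the 2 sides differed in direction for *Gli1*. The control embryo lacked 1 *Six3* allele, so this limit is not 50% of the level of 2 intact alleles. The Six3-low subclusters were 3, whose leading genes included *Sox21*, *Pantr1* and *Fabp7*, and 7, whose leading genes included *Dbx1*, *Vwc2* and *Fabp7*. These cells thus differed from the other DKO progenitor cells in more genes than *Six3*. The 1221 progenitor cells of Six3-low subclusters had *Gli1* at 3.22 CPM from 34 UMIs. This was 2.78-fold below control, with a log2 ratio of -1.47 (-2.03 to -0.96). The other 2273 DKO progenitor cells had *Gli1* at 20.5 CPM (18.6 to 22.6), 2.30-fold above control. Of their 409 *Gli1* UMIs, 219 were in subcluster 8 and 106 in subcluster 5. In subclusters 1, 9 and 13 the interval of *Gli1* included the control level of 8.94 CPM. *Hhip* was at 3.97 CPM (2.86 to 5.37) in Six3-low cells, with a log2 ratio of -0.43 whose interval, -0.95 to 0.06, spanned 0, and at 13.3 CPM in the other cells, with a log2 ratio of 1.31 (1.04 to 1.59). *Ptch1* summed over the progenitor clusters was above control on both sides, with log2 ratios of 0.26 (0.11 to 0.42) and 0.73 (0.61 to 0.84). In Six3-low cells this held in cluster 0, at 0.50 (0.30 to 0.70), and not in cluster 1, at -0.16 (-0.45 to 0.13). The co-receptors and *Gli3* were ordered otherwise. *Boc* was at 10.8 CPM in Six3-low cells and 5.73 CPM in the others, around 7.12 CPM in control, and *Gli3* at 116 and 83.8 CPM, with control at 80.0 CPM. *Cdon* summed over the progenitor clusters was below control on both sides, with log2 ratios of -0.74 (-0.85 to -0.63) and -0.15 (-0.22 to -0.07). In the other DKO cells the ratio was 0.02 (-0.07 to 0.11) in cluster 0, -0.17 (-0.31 to -0.02) in cluster 1 and -0.71 (-0.91 to -0.50) in cluster 9. Of the 2375 *Cdon* UMIs of these cells, 1116 were in subcluster 9, which held 482 of their 1013 cells in cluster 0. *Cdon* was at 181 CPM in subclusters 1 and 9. It was at 90.1, 90.8 and 70.4 CPM in subclusters 5, 8 and 13, against 132 CPM in control. The ratio in cluster 0 is thus over subclusters with unlike *Cdon* levels. *Smo* had log2 ratios of -0.16 and -0.15 and so did not follow the split. The lower *Gli1* of Six3-low cells was seen in cluster 0 (4.30 CPM) and cluster 1 (1.08 CPM), and cluster 9 held 13 such cells, too few to read. Of the 651 progenitor cells of subcluster 7, 623 lay in cluster 0, and of the 570 of subcluster 3, 561 lay in cluster 1. The values of Six3-low cells by cluster, also those of *Ptch1*, are thus largely the values of these subclusters and not separate observations. DKO subclusters 13 and 9, with *Six3* at 157 and 178 CPM, lay just above the limit of the split, and their *Gli1* was 8.66 and 6.96 CPM. Position in the retina, central or peripheral, was not recorded for cells, so that a cell's position and its loss of *Six3* cannot be told apart.

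*Gli1* and *Ptch1* UMIs also occurred together in single progenitor cells. After thinning to 2000 UMIs, *Ptch1* was seen in 18.7% (10.6 to 29.3) of the 75 control cells with a *Gli1* UMI and 6.78% (5.95 to 7.67) of those without, and in 23 of 99 (23.2%) and 332 of 3348 (9.92%) such cells in DKO. *Hhip* was seen in 7.07% (2.89 to 14.0) of DKO cells with a *Gli1* UMI and 2.12% (1.66 to 2.67) of those without. In control it was seen in 3 of 75 cells with a *Gli1* UMI (0.833% to 11.2%) and 1.18% (0.843 to 1.60) of those without, and these intervals overlap. They also overlap for *Hhip* in control cells with a *Ptch1* UMI, 0.820% (0.0994 to 2.93), and without, 1.27% (0.914 to 1.72). In DKO these shares were 3.38% (1.76 to 5.83) and 2.13% (1.65 to 2.71), and their intervals overlap as well. For *Cdon* the shares in control were 15 of 75 cells with a *Gli1* UMI (11.6% to 30.8%) and 22.0% of those without (20.6% to 23.4%), and these intervals overlap. All these shares pool subclusters with unlike levels. Of the 99 DKO cells with a *Gli1* UMI, 45 were in subcluster 8 and 33 in subcluster 5. *Ptch1* was seen in 16.3% and 12.8% of all cells of these subclusters, and *Hhip* in 6.01% and 3.71%. Whether the genes occurred together within a subcluster was not tested.

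Of 31 further genes, 21 passed the filter in the progenitor clusters, with a median log2 ratio of -0.12 against 0.02 for all genes. Of the 21, 0 were more than 1.5-fold higher or lower in DKO, where 3.88% and 1.84% of all genes were. The lowest were *Kif3a*, a motor protein needed to build cilia, at -0.55 (-0.61 to -0.49), and *Gpr161*, a ciliary receptor that restrains the pathway, at -0.45 (-0.73 to -0.18). The highest were *Gsk3b* and *Ift88*, a kinase that phosphorylates GLI proteins and a ciliary transport protein, at 0.20 and 0.19. In ganglion-like cells 19 of the 31 passed the filter, with a median of 0.09 against 0.04. Of the 19, 1 was more than 1.5-fold higher in DKO and 0 lower, where 6.30% and 2.47% of all genes were. It was *Scube1*, at 0.71 (0.34 to 1.10), and *Scube3*, at 0.53 (0.22 to 0.84), was next. Both belong to the family of secreted proteins that help release Hedgehog ligand. The higher *Scube1* in DKO was not particular to ganglion-like cells. Its ratio was 0.84 (0.48 to 1.19) in the progenitor clusters, where it did not pass the filter, and 0.87 (0.31 to 1.44) in cluster 4. In neurogenic-like cells it was at 13.2 CPM in control and 26.5 CPM in DKO, with an interval of the log2 ratio from 0.69 to 1.31. The lowest in ganglion-like cells were *Stk36* at -0.39 and *Disp1*, which exports the ligand, at -0.38, both with intervals that spanned 0. In neurogenic-like cells 2 of the 20 that passed were past the fold upwards and 1 downwards, where 6.39% and 4.53% of all genes were. In cluster 4 it was 2 and 3 of 21, where 6.78% and 4.44% of all genes were, and 1 of those upwards, *Disp1*, was at 4.71 CPM in control and 7.62 CPM in DKO and so passed the filter through DKO.

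Likeness of pattern was measured by Pearson's r of log2(CPM + 1) over 37 combinations of cluster and library with at least 50 cells, among 10015 genes that reached 20 CPM in one of them. These points share libraries and depth, so r is a description. The genes most like *Shh* were *Ppp1r1c* (0.96), *Mstn* (0.95), *Ecel1* (0.93), *Irx4* (0.92) and *Cda* (0.91), all highest in cluster 6. Those most like *Gli1* were *Nr2e1* (0.88), *Tnfaip6* (0.87), *Ndufa4l2* (0.87), *Cox4i2* (0.86) and *Fgf15* (0.83), and *Ndufa4l2* and *Cox4i2* were also among the genes leading DKO subclusters 5 and 8. *Cdon* was most like *Gas1* (0.93), which encodes a further Hedgehog co-receptor, followed by *Plekhg2*, *Col2a1*, *Adgrv1* and *Prss23* (0.93 to 0.92).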

How the data were processed

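Single-cell RNA-seq counts of 1 control and 1 DKO library (3′ kit, version 3) were used. The authors deposited the counts as UMIs per gene and cell, without normalization, made with Cell Ranger 3.1.0 on mm10 per the submitters' processing notes. There were 10315 deposited control barcodes and 12672 DKO barcodes. The study's own limits were applied: above 200 detected genes, below 6000, and a mitochondrial share below 20%.

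The libraries were integrated with Seurat 5.3.0 in R 4.3.3 (2000 variable genes, 20 dimensions, resolution 0.5, or 1 for each library alone). The 9 members, 31 further pathway genes, genes named by the study and hemoglobin genes were left out of the clustering. A cluster was named where at least 3 markers were detected and 75% of a class's markers were above the other cells. Scrublet (scanpy 1.11.5) was run on each library to score doublets, which were kept, except in an alternative. Its automatic threshold called 0 control cells, so the lower threshold of the DKO library was used for both. Levels have exact Poisson intervals, and ratios and shares have exact (Clopper-Pearson) binomial intervals (Python 3.11.15, scipy 1.17.1). No ratio was given where both libraries had 3 UMIs or fewer. The ratios and intervals were tested on simulated data. Genes are placed by GENCODE M21.

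The members and lists were chosen with earlier results of these data known. Named genes are the members, the 2 highest and 2 lowest of the further pathway genes in progenitor and ganglion-like cells, the 5 genes most like *Shh*, *Gli1* and *Cdon*, *Six3* and *Six6*, and leading genes of clusters. The split by *Six3* level was planned, and the values without a subcluster or cluster, for the other side of the split, and with another linear algebra kernel were added after seeing the data. Some genes that served as markers are not reported here.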

Additional observations from a re-analysis of the deposited data

Results flagged for a closer look

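*Hhip* stood out because its ratio of DKO to control had an interval above 0 in one group of cells and below 0 in another. Its log2 ratio was 0.91 (0.65 to 1.18) in the progenitor clusters and -0.72 (-1.41 to -0.06) in neurogenic-like cells. The neurogenic-like value is not firm: its interval spanned 0 under 5 other ways of clustering, with ratios from -0.67 to -0.38. The progenitor value was 0.16 (-0.15 to 0.48) without DKO subcluster 8. The difference between the groups was not tested, since each genotype had 1 library. Within the neurogenic-like cells the lower level came from cluster 3, with 26 control and 4 DKO UMIs, and not from cluster 7, with 31 and 26. The same direction as in cluster 3 was seen in ganglion-like cluster 5, with 15 control and 9 DKO UMIs, a log2 ratio of -1.34 (-2.72 to -0.06).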

How the results depend on the processing

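No paired analysis was possible because only 1 control and 1 DKO library were compared. All values below are log2 ratios of DKO to control unless stated. In the progenitor clusters, with all genes allowed for clustering, *Ptch1* was at 0.45 and *Cdon* at -0.42, and at resolution 1 *Hhip* was at 1.37. With the libraries merged without integration, *Gli1* was at 1.68, *Ptch1* at 1.02, *Hhip* at 1.90, *Cdon* at -0.13 and *Gli3* at -0.19, a change of sign, over 2067 control and 1105 DKO cells, and *Shh* in ganglion-like cells was at 1.64. With DKO cells of Six3-low subclusters alone, *Gli1* was at -1.47, *Ptch1* at 0.26, *Hhip* at -0.43 and *Cdon* at -0.74, and with the other DKO cells, 1.20, 0.73, 1.31 and -0.15. Without DKO subcluster 8, *Gli1* was at -0.037, *Ptch1* at 0.37 and *Hhip* at 0.16. Few Six3-low cells were ganglion-like (44) or neurogenic-like (33), where *Shh* was at -0.65 from 1 DKO UMI, *Smo* at 0.38 and *Cdon* at 1.10. The share of genes past 1.5-fold upwards in the progenitor clusters was 2.27% with a mean of at least 20 CPM and 13.1% with at least 1 UMI in each library, and downwards 9.09% in the latter. Leaving out doublets, cells under 1000 genes, hemoglobin and mitochondrial UMIs or cluster 15, centring on the median gene and another linear algebra kernel kept *Gli1*, *Ptch1*, *Hhip*, *Cdon* and *Shh* within their main intervals. The interval of *Hhip* in neurogenic-like cells spanned 0 with all genes allowed (-0.41), at resolution 0.3 (-0.38) and 1 (-0.67), with merged libraries (-0.49) and with the other kernel (-0.65). The cause of these changes was not tested. *Shh* in ganglion-like cells rests on 39 control and 156 DKO UMIs.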
